A study of Homo sapiens with 22 samples.

Results

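Transposon insertions in K562 cells were counted at 10 genes of imprinted domains, namely IGF2, H19, KCNQ1OT1, DLK1, MEG3, PEG3, PEG10, MEST, SNRPN and GNAS. The genes were taken as a named list and not by a rule on how many insertions they held. Earlier results of these data were known when the list was chosen. These genes are 10 of the 38899 protein-coding and long non-coding RNA (lncRNA) genes of the annotation. For each, the window was the gene body (the annotated gene from start to end) with 20 kb on either side, and the surroundings were the 500 kb on each side of that window, 1 Mb in all. All of them lie on hg38 chromosomes 7, 11, 14, 15, 19 and 20.

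K562 is an established human leukemia cell line with erythroid features. All cells were electroporated with the donor Barcoded-PBase-SRT-Puro, a barcoded piggyBac transposon that carries a puromycin marker, together with a helper plasmid that supplies the transposase, and were grown under puromycin for 11 days. The 10 libraries of the hyPBase group received the helper hyPBase, and the 10 libraries of the hyPBase-centrip group received the helper hyPBase-centrip, whose difference from hyPBase is not given in the sources used here. Insertions were read from self-reporting transcripts, RNAs that run from the transposon into the flanking genome, so an insertion is listed only if its transcript was recovered. RNA was isolated from sets of 3 replicates, and cells of 3 replicates shared a dish, so libraries may not be fully independent. Libraries are pools of transfected cells, and p-values measure the spread between such pools. The tests treat the libraries as independent and hold no term for the shared dish or set. Libraries held 1509672 to 3596762 insertions.

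In genomic imprinting, a gene is expressed from the maternal or the paternal copy only, and clusters of such genes are controlled by a differentially methylated region. Several clusters hold a lncRNA, such as H19, MEG3 or KCNQ1OT1, that is expressed from the opposite parental copy to the neighbouring protein-coding genes. The piggyBac transposase inserts at the tetranucleotide TTAA and is known to favour open chromatin. The files list positions without sequence variants, so insertions on the maternal and paternal copies could not be told apart, and density near a gene is not a measure of its expression.

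Together the 10 windows held 4481 TTAA sites and 14387 insertions, or 0.028% of the 52121915 placed on the autosomes, X and Y. The TTAA site with the most insertions in each of the 5 windows with the most insertions is shown here because single sites carry a large share of some windows. Each is written 5′ to 3′ on the plus strand of hg38 with the TTAA in capitals.
MEG3, chr14:100771373-100771376, 353 insertions: gatgaggattagtTTAAcgaggtttgtttg
GNAS, chr20:58875866-58875869, 276 insertions: tgctttactttctTTAAaaaagaaatataa
KCNQ1OT1, chr11:2599849-2599852, 240 insertions: cttcatcacctctTTAAaggtcctgtctcc
DLK1, chr14:100755363-100755366, 118 insertions: tgtttggactgctTTAAcaaaattccatca
MEST, chr7:130518242-130518245, 50 insertions: atatttggtttctTTAAaaaagatctgaag

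The MEG3, GNAS, KCNQ1OT1 and DLK1 sites were hit in 20 of 20 libraries, and the MEST site in 16. The GNAS and KCNQ1OT1 sites lie in introns of those genes, while the MEG3 site lies 8.04 kb before the annotated gene start, the DLK1 site is 29.7 kb after the DLK1 start and the MEST site lies in COPG2. A T stands before and an A after the TTAA in the GNAS, KCNQ1OT1 and MEST sites, which makes the palindrome TTTAAA. Over the genome, TTTAAA sites held 4.50 insertions per site and other TTAA sites 2.32, a ratio of 1.94. The ratio was between 1.48 (IGF2) and 2.74 (KCNQ1OT1) in 9 of the windows, while in the H19 window the 3 TTTAAA sites held 0 insertions. These ratios are descriptions without a test.

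Insertion density differed more than 100-fold between the member windows. MEG3 was the densest, with 14.8 insertions per TTAA site summed over the 20 libraries against 3.26 in its surroundings, and H19 the emptiest, with 0.064 against 2.64. The genome held 2.71 per site. For the test, each library gave a log2 ratio of insertions per TTAA site in the window over that in the surroundings, with 0.5 added to each count, and the mean ratio was tested against 0 with limma over 38670 genes. At an adjusted p below 0.05, 2 members were denser than their surroundings (MEG3 and DLK1), 7 were sparser (H19, KCNQ1OT1, PEG3, PEG10, MEST, SNRPN and GNAS) and IGF2 did not pass. Over all genes tested, 41.3% were called denser and 49.6% sparser, so a call is common. The median log2 ratio was -0.50 over the 10 members and -0.11 over all genes.

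**Figure D1:**
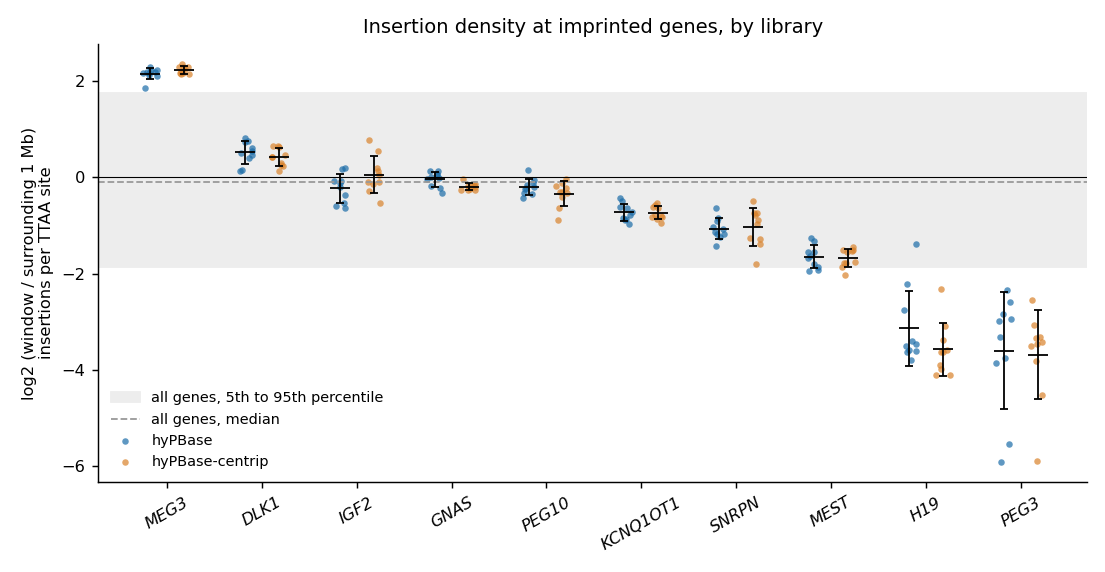
Log2 ratio of insertions per TTAA site in the window over the surrounding 1 Mb (y axis) for each member (x axis), 1 point per library, with the mean and SD over the 10 libraries of each helper as black bars and the 5th to 95th percentile of all genes in grey. MEG3 lies above the grey band and H19 and PEG3 lie mostly below it, under both helpers.

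MEG3, a maternally expressed lncRNA of the DLK1-MEG3 domain, spans chr14:100779410-100861031 on the plus strand. Its window held between 166 and 322 insertions in the hyPBase libraries (median 268) and between 233 and 415 in the hyPBase-centrip libraries (median 322). All 20 libraries were denser in the window than in the surroundings. The mean log2 ratio was 2.19 with a standard error (SE) of 0.022, a 4.56-fold density (limma, adjusted p = 5.0e-61), which is at percentile 97.7 of all genes. The insertions were unevenly placed. In the 20 kb before the annotated start, 69 TTAA sites held 3079 insertions or 44.6 per site, 13.7 times the surroundings, and the gene body held 9.31 per site. The 20 kb after the gene held 36 insertions at 28 sites, 1.29 per site. The 5 kb bin with the most insertions, chr14:100759410-100764409, held 1422. MEG3 has several annotated starts, and the first one in RefSeq lies 46.7 kb inside the GENCODE gene. The 5 kb bin that holds this RefSeq start had 12 insertions at 17 sites, 0.706 per site.

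H19, a maternally expressed lncRNA next to IGF2, spans chr11:1995166-2004552 on the minus strand. Its window held 3 insertions at 47 TTAA sites, and 17 of 20 libraries had 0. The pooled density was 0.024 times that of the surroundings (95% exact binomial interval 0.005 to 0.071, which covers counting error only). The gene body held 0 insertions at 9 sites, which allows up to 3 insertions or 0.333 per site. The limma log2 ratio was -3.36 (SE 0.184, adjusted p = 2.9e-24), but at such counts it is set in part by the added 0.5 and is not a fold change. The stretch without insertions ran on beyond the window. From chr11:2019974 to 2061404, 50 consecutive TTAA sites over 41.4 kb held none in the 20 libraries, while the longest such stretch touching another member's window was 9.43 kb, in KCNQ1OT1. The H19 window is poor in targets, with 0.952 TTAA sites per kb against 2.42 in the surroundings and a GC content of 61.9% against 54.4%.

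KCNQ1OT1, a paternally expressed lncRNA transcribed antisense within the potassium channel gene KCNQ1, spans chr11:2597308-2700003 on the minus strand. The window counts ranged from 44 to 91 in the hyPBase libraries (median 77.5) and from 56 to 110 in the hyPBase-centrip libraries (median 87.5). All 20 libraries were sparser there than in the surroundings, at 2.68 against 4.50 insertions per site (log2 ratio -0.73, SE 0.036, limma adjusted p = 2.2e-26). The 5 kb bin at the 3′ end of the gene, chr11:2597308-2602307, held 563 of the 1632 insertions (34.5%), at 14.1 per site. In contrast, 49 consecutive TTAA sites from chr11:2633332 to 2642765 held none. The target sites were crowded in this window, with 4.27 TTAA per kb against 2.66 in the surroundings. Per base pair in place of TTAA site, the log2 ratio was -0.05 and no longer passed the test.

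**Figure D2:**
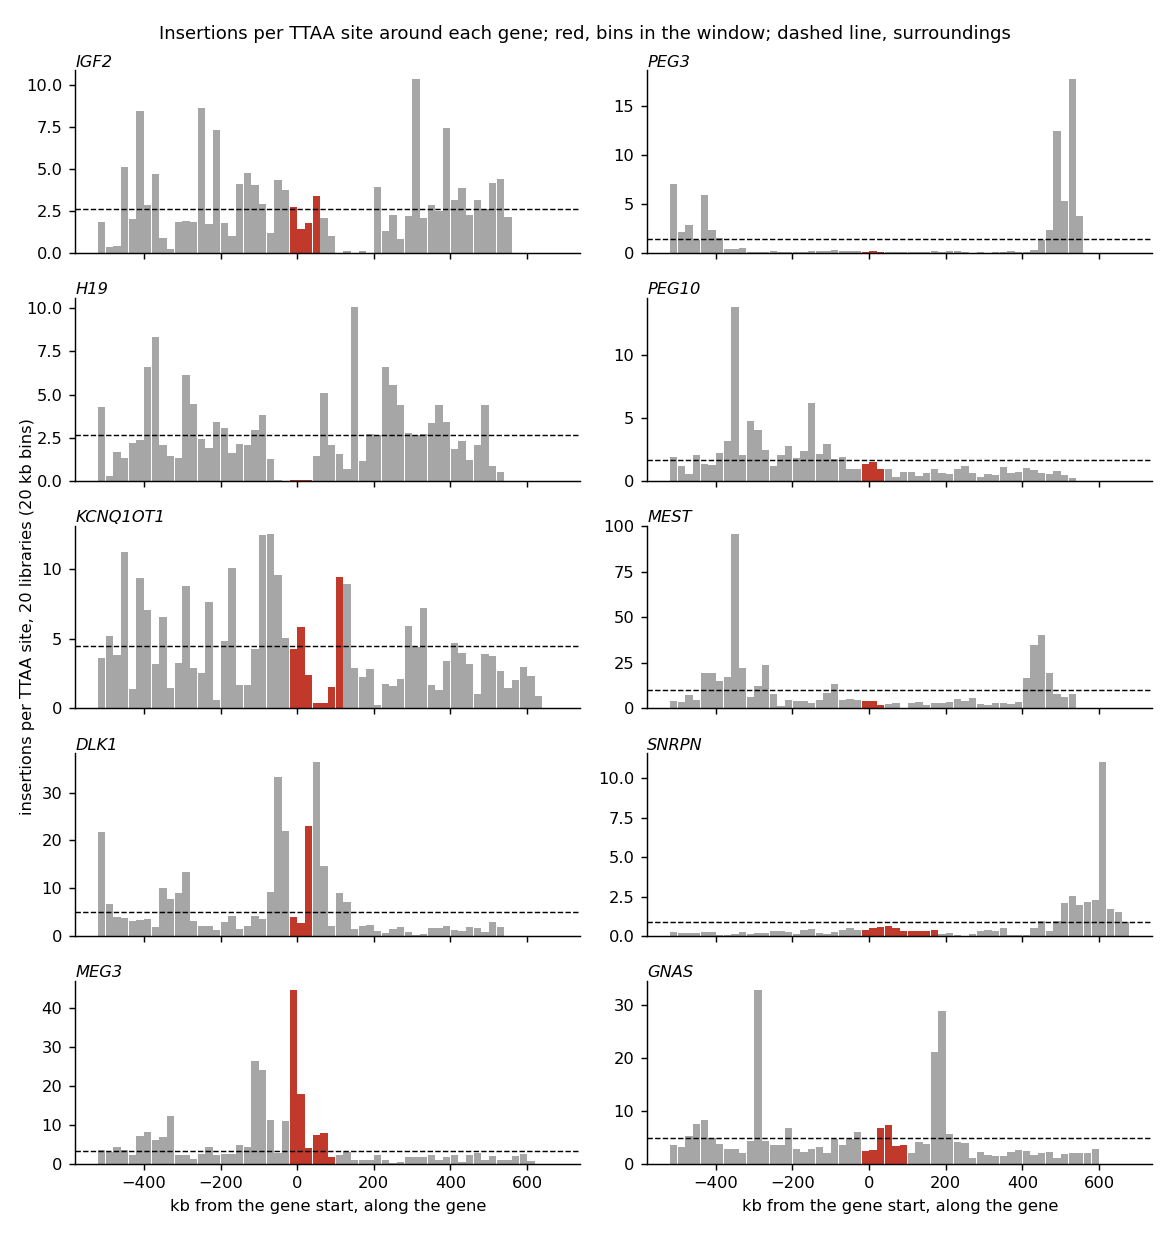
Insertions per TTAA site, summed over 20 libraries, in 20 kb bins (y axis) against distance in kb from the gene start along the gene (x axis), 1 panel per member, with bins of the window in red and the density of the surroundings as a dashed line. The PEG3 window lies in a long stretch of low bins, the MEG3 window holds the tallest bin of its panel, and the KCNQ1OT1 window has 3 of its 7 bins below 0.5 times its surroundings.

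IGF2, a paternally expressed growth factor, spans chr11:2129112-2158391 on the minus strand. The window held 7 to 17 insertions in the hyPBase libraries (median 12) and 14 to 22 in the hyPBase-centrip libraries (median 17), 295 in all. Its density was 2.44 per site against 2.64, and 14 of 20 libraries were sparser than the surroundings (log2 ratio -0.09, SE 0.084, limma adjusted p = 0.32). The 20 kb after the gene held 178 of the insertions, and 131 lay in the last 5 kb bin of the window, chr11:2109112-2114111. The IGF2 surroundings hold the H19 window and part of the KCNQ1OT1 window. With the windows of other members left out of the surroundings, the log2 ratio was -0.18 (limma, adjusted p = 0.0375), so the call depends on that choice. Between the H19 and IGF2 windows lay 84.6 kb with 164 TTAA sites and 197 insertions, 1.20 per site.

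DLK1, a paternally expressed transmembrane protein related to the Notch ligands, spans chr14:100725705-100738224 on the plus strand. Counts were 27 to 84 in the hyPBase libraries (median 60.5) and 37 to 96 in the hyPBase-centrip libraries (median 63.5). All 20 libraries were denser in the window, at 6.89 per site against 4.94 (log2 ratio 0.46, SE 0.045, limma adjusted p = 3.2e-14). The gene itself did not share this density. Its body held 67 insertions at 32 sites, 0.424 times the surroundings, whereas the 20 kb after the gene, which lies between DLK1 and MEG3, held 921 at 87 sites, 2.14 times the surroundings. With the gene body alone the log2 ratio was -1.17, the opposite direction. With the MEG3 window left out of the surroundings it was 0.81.

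PEG3, a paternally expressed zinc finger protein, spans chr19:56810077-56840728 on the minus strand and shares its start region with ZIM2. The window held 0 to 7 insertions in the hyPBase libraries (median 3) and 0 to 8 in the hyPBase-centrip libraries (median 3), 62 in all at 479 TTAA sites. All 20 libraries were sparser than the surroundings, at 0.129 per site against 1.47, a pooled ratio of 0.088 (95% exact binomial interval 0.067 to 0.113). The limma log2 ratio was -3.65 (SE 0.184, adjusted p = 6.8e-26). The low density was not particular to the window: the 20 kb bins from 380 kb before to 440 kb after the gene start were all below 0.5 times the surroundings, with 679 insertions at 4303 sites or 0.158 per site, against 5.29 in the rest of the region. Such low bins around the whole window ran over 300.0 kb at MEST and 120.0 kb at H19, and no other member had its whole window in them.

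PEG10, a paternally expressed gene derived from a retrotransposon, spans chr7:94656325-94669695 on the plus strand and starts beside SGCE, which runs the other way. Counts were 18 to 42 in the hyPBase libraries (median 31) and 19 to 38 in the hyPBase-centrip libraries (median 33.5). The density was 1.35 per site against 1.66, and 19 of 20 libraries were sparser (log2 ratio -0.27, SE 0.058, limma adjusted p = 2.8e-05). The gene body, at 1.76 per site, was 1.06 times the surroundings, and the flanks on either side were 0.780 and 0.680 times.

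MEST, a paternally expressed gene for a protein of the alpha/beta hydrolase fold, spans chr7:130486171-130506465 on the plus strand. Counts were 33 to 90 in the hyPBase libraries (median 61.5) and 32 to 85 in the hyPBase-centrip libraries (median 69). All 20 libraries were sparser than the surroundings, at 3.25 per site against 10.2 (log2 ratio -1.66, SE 0.045, limma adjusted p = 3.3e-39, percentile 6.71). The MEST window was thus denser than the genome mean of 2.71. The 20 kb bins that begin 120 to 40 kb before the gene start held 4.47 to 13.5 per site, all above the window. Those that begin 40 to 240 kb after it held 0.241 to 4.97, on both sides of the window's density. The 20 kb bins from 40 kb before to 260 kb after the gene start held 3.18 per site. The rest of the region held 12.6 per site.

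SNRPN, a paternally expressed component of small nuclear ribonucleoproteins, spans chr15:24823637-24978723 on the plus strand. Counts were 11 to 31 in the hyPBase libraries (median 25) and 11 to 46 in the hyPBase-centrip libraries (median 29). All 20 libraries were sparser than the surroundings, at 0.442 per site against 0.902 (log2 ratio -1.05, SE 0.070, limma adjusted p = 1.3e-20). The surroundings were uneven. The 20 kb bin that begins 600 kb after the gene start held 1808 of their 5787 insertions, at 11.0 per site. The 20 kb bins before the window held 0.051 to 0.506 per site, so the window was not sparse beside that side. Insertions in the window were spread thinly. The 10 sites with the most held 9.79% of them, against 15.7% in the PEG10 window, 34.1% in the MEG3 window and 51.7% in the DLK1 window. These windows differ in size, with 1179 TTAA sites at SNRPN, 455 at PEG10, 400 at MEG3 and 176 at DLK1. The shares are not corrected for that.

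GNAS, which encodes the stimulatory G protein alpha subunit and has maternal, paternal and biallelic transcripts, spans chr20:58839718-58911192 on the plus strand. Counts were 87 to 180 in the hyPBase libraries (median 134) and 91 to 206 in the hyPBase-centrip libraries (median 149). The density was 4.54 per site against 4.95, and 15 of 20 libraries were sparser (log2 ratio -0.12, SE 0.028, limma adjusted p = 1.4e-04). The gene body was 1.08 times and the 20 kb before it 0.501 times the surroundings. The direction of this small difference turned with the setting, to 0.12 with the gene body alone and 0.41 against 1 Mb on each side.

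Ordered by mean log2 ratio, the members ran MEG3, DLK1, IGF2, GNAS, PEG10, KCNQ1OT1, SNRPN and MEST, with H19 and PEG3 below them. The log2 ratios do not order H19 and PEG3, because H19 was at 0 in 17 libraries and its value there depends on the added 0.5. By pooled ratio H19, at 0.024, was below PEG3, at 0.088, and their intervals (0.005 to 0.071 and 0.067 to 0.113) overlapped slightly. By log2 ratio MEG3 was above DLK1 in 20 of 20 libraries. DLK1 was above IGF2, PEG10 above KCNQ1OT1, SNRPN above MEST and MEST above H19 in 19. The count for MEST and H19 also rests on the added 0.5. Without it, the lowest MEST density ratio was 0.258 with hyPBase and 0.243 with hyPBase-centrip. The highest H19 ratio was 0.254 with hyPBase and 0.134 with hyPBase-centrip. Neighbours that separated in fewer libraries were IGF2 and GNAS (10 of 20), KCNQ1OT1 and SNRPN (14) and GNAS and PEG10 (15).

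Promoter sequences, 300 bases from 250 before to 50 after a start in RefSeq (GRCh38.p14), were matched for 5 members (GNAS, H19, MEG3, MEST and SNRPN) with 19 starts. A TTAA was in 5 of the 19, 1 of GNAS and 4 of MEST, and in 46.1% of all 34943 such promoters, searched as TTAA, which reads the same on both strands. The MEST promoters that begin at chr7:130491808 and chr7:130491835 overlap and hold the same TTAA, so the 5 are not all separate sites. Only 1 of the 5 promoters had an insertion at its TTAA, 2 in the 20 libraries, at a MEST start. The 246 bases up to the annotated MEST start, chr7:130485925-130486170 on the plus strand, are shown with that TTAA in capitals.
MEST: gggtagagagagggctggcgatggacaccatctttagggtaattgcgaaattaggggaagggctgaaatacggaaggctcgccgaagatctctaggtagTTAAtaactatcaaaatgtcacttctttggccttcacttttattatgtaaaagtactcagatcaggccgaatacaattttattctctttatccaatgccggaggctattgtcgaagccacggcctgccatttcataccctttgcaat

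Orientation was read as same-strand where the deposited orientation equals the strand of the gene. Which end of the transposon it marks is not given in the sources used here. The log2 ratio of same-strand over opposite-strand insertions in the gene body was tested against 0 with limma in genes with at least 10 insertions per library on average, which 5 members had. KCNQ1OT1, MEST and GNAS were called opposite, MEG3 same, and SNRPN did not pass. Over the 19374 genes tested, 16.2% were called same-strand and 65.5% opposite, and the median log2 ratio was -0.59 against -0.47 over the 5 members.

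GNAS had between 20.7 and 30.6% same-strand insertions in the hyPBase libraries (median 27.0) and between 25.0 and 37.1% in the hyPBase-centrip libraries (median 27.9), below 50% in 20 of 20 (log2 ratio -1.38, SE 0.059, limma adjusted p = 4.5e-22). MEST ranged from 7.69 to 50.0% (median 31.5) and from 11.5 to 41.7% (median 27.1), and its log2 ratio was -1.36 (SE 0.169, limma adjusted p = 3.7e-09). In KCNQ1OT1, same-strand shares ranged from 34.2 to 47.9% (median 43.1) and from 32.3 to 48.6% (median 42.2), with a log2 ratio of -0.47 (SE 0.077, limma adjusted p = 8.8e-07). The strand opposite to KCNQ1OT1 is that of KCNQ1, so these insertions lay more often along KCNQ1. Over the whole KCNQ1 body no such excess was called (log2 ratio of same-strand over opposite-strand -0.05, SE 0.047, limma adjusted p = 0.30). MEG3 ranged from 48.4 to 60.2% (median 53.5) and from 45.4 to 58.9% (median 52.6), with a log2 ratio of 0.20 (SE 0.054, limma adjusted p = 0.0014). Over the whole MEG3 window the log2 ratio was -0.19, since the 20 kb before the start had 40.9% same-strand insertions, and with 1 insertion per position and orientation in the body it was -0.12 (limma, adjusted p = 0.073). SNRPN had 44.3% same-strand insertions in all (log2 ratio -0.21, SE 0.162, limma adjusted p = 0.23).

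**Figure D3:**
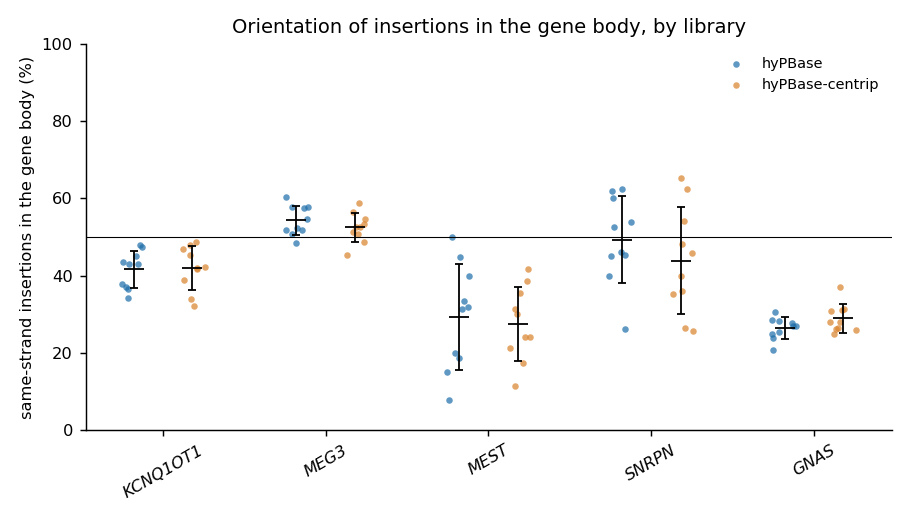
Same-strand share of the insertions in the gene body in percent (y axis) for the 5 members tested (x axis), 1 point per library, with the mean and SD over the 10 libraries of each helper as black bars and a line at 50%. All GNAS and KCNQ1OT1 points lie below the line, and SNRPN points lie on both sides of it.

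Exons and introns of a member could differ in orientation. PEG10, with 197 insertions in its body and so just under the minimum for the test, had 43 of 50 same-strand in exons (86.0%) and 2 of 147 in introns (1.36%). Introns were mostly opposite in 20 of 20 libraries and exons mostly same in 16. MEST had 66.2% same-strand in exons and 12.0% in introns, and IGF2 61.3% and 25.0% of 31 and 48 insertions. By contrast KCNQ1OT1 had 42.3% and 42.0%, and in GNAS exons, at 24.2%, were below introns, at 29.6%. The exon share was the higher in 6 of the 7 members with at least 20 insertions in each and in 74.4% of 17057 such genes, and the median difference over those genes was 12.9 percentage points. The differences of PEG10 and MEST were larger than those of 99.8% and 96.1% of these genes. Exons are those of any annotated transcript, and genes on the other strand overlap several bodies, such as MESTIT1 and COPG2 at MEST. Their part in the result was not tested for exons and introns. Without the sites that overlap a gene on the other strand, the log2 ratio in the gene body was -1.11 for MEST and -1.06 for GNAS. For MEG3 it was 0.31 and for SNRPN -0.21.

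The flanks had orientations of their own. All 38 insertions in the 20 kb before IGF2 were same-strand, at 6 sites, and MEST had 25.8% same-strand before and 72.8% after the gene. COPG2, on the minus strand, covers the end of MEST and the sequence after it.

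**Figure D4:**
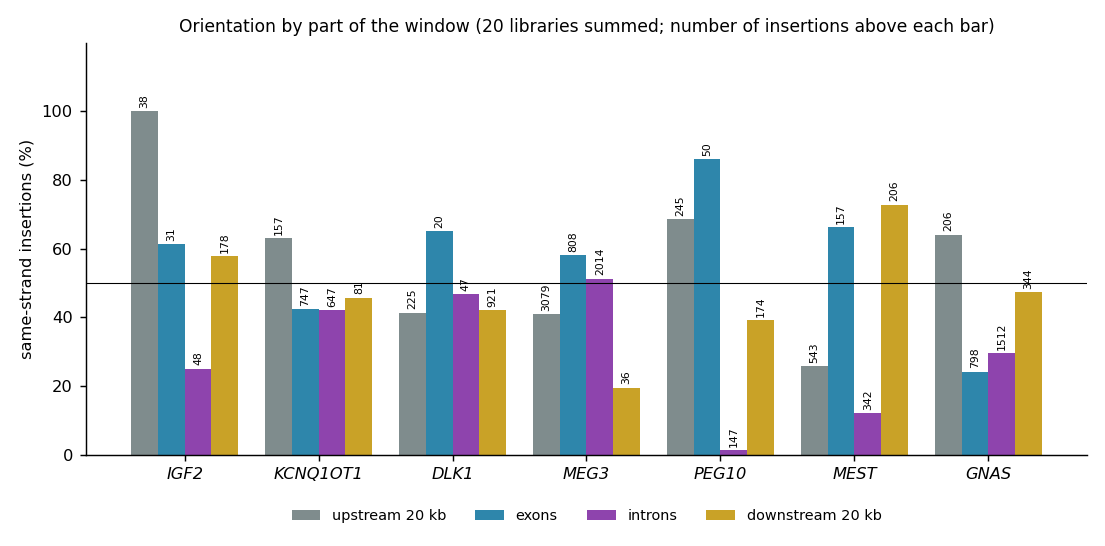
Same-strand share of insertions in percent (y axis), summed over 20 libraries, in the 20 kb before the gene, its exons, its introns and the 20 kb after it for 7 members (x axis), with the number of insertions above each bar. PEG10 and MEST introns are low beside their exons, whereas the KCNQ1OT1 exons and introns are at 42.3% and 42.0%.

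The number of insertions per window was set against the helper in edgeR (quasi-likelihood test). H19 and PEG3 had too few insertions, and none of the other 8 members was called at an adjusted p below 0.05. Over the 35772 genes tested, 0.735% were called higher and 1.64% lower with hyPBase-centrip. MEG3 had the smallest p among the members, with 91.6 to 117 insertions per 1000000 of the library in the hyPBase group (median 110) and 109 to 142 in the hyPBase-centrip group (median 117). These ranges overlap, and the log2 fold change was 0.11 (SE 0.040, edgeR p = 0.0054, adjusted p = 0.12, 95% interval 0.03 to 0.20). It passed with insertions of at least 2 reads (0.18, adjusted p = 0.048, edgeR) and with library size as a term (0.14, adjusted p = 0.025, edgeR). For IGF2 the log2 fold change was 0.28 (95% interval -0.08 to 0.63) and for PEG10 -0.19 (-0.43 to 0.05), and the intervals of KCNQ1OT1, DLK1, MEST and GNAS lay within -0.23 and 0.16. At SNRPN it was 0.08 (-0.19 to 0.35).

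**Figure D5:**
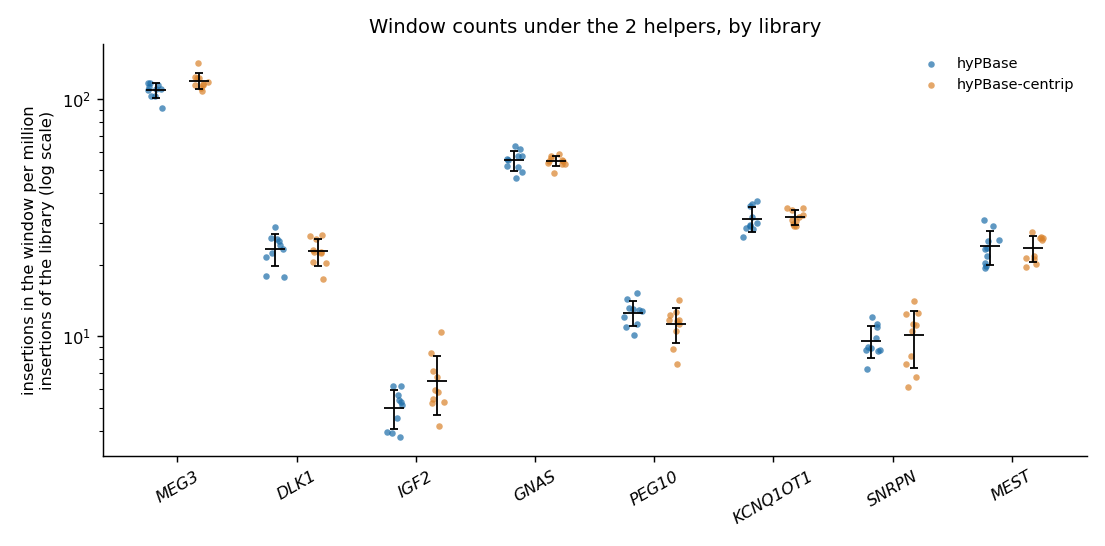
Insertions in the window per 1000000 insertions of the library (y axis, log scale) for the 8 members tested (x axis), 1 point per library, with the mean and SD over the 10 libraries of each helper as black bars. The points of the helpers overlap for every member shown, and the largest mean difference relative to its spread is that of MEG3, at 109 against 119.

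The difference between helpers in the density ratio was called for none of the 10 members. Over all genes 0.261% were called higher and 0.409% lower. GNAS came closest, at -0.15 on the log2 scale (95% interval -0.27 to -0.04, limma p = 0.0077, adjusted p = 0.19). The difference in orientation was called for none of the 5 members tested, with 0.717% of all genes called higher and 0.0465% lower, and its widest interval was that of SNRPN, from -0.99 to 0.36.

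Among 33 further genes of the same domains, 11 were called denser than their surroundings and 19 sparser, with a median log2 ratio of -0.32. Over all genes tested, 41.3% were called denser and 49.6% sparser, with a median of -0.11. Many windows of the 33 genes overlap those of the members. The highest were MKRN3 (2.49) and UBE3A (1.73), which lie on either side of SNRPN, and CDKN1C (0.94), a cell cycle inhibitor of the KCNQ1OT1 domain. The lowest were ZIM2 (-3.77), USP29 (-3.45) and MIMT1 (-3.10), all of the PEG3 domain. Of the 24 with enough insertions, 0 were called between helpers, and NPEPL1 had the smallest p (log2 fold change 0.25, edgeR p = 0.017, adjusted p = 0.21).

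Among 23 imprinted genes of other loci, 10 were called denser and 12 sparser, with a median log2 ratio of -0.26. The shares over all genes tested were 41.3% denser and 49.6% sparser. Some of the 23 genes are neighbours, such as SGK2 and L3MBTL1, so the counts are not of separate loci. The highest were WT1 (2.44), a transcription factor, SGK2 (1.88), a kinase, and L3MBTL1 (1.49), a chromatin reader. The lowest were FAM50B (-1.66), GRB10 (-1.12), a signalling adaptor, and MCTS2 (-1.01). GRB10 was called higher with hyPBase-centrip (log2 fold change 0.24, SE 0.046, edgeR adjusted p = 1.2e-04), the only gene called of the 23. Genes known from erythroid cells served as a check of the labelled cell type. Over all genes tested, 41.3% were called denser than their surroundings. Among 10 erythroid genes 9 were called denser (median log2 ratio 1.94), and among 10 genes of other cell types 2 were (median -0.22). These genes are not all separate loci. HBG1 and HBG2, both erythroid, are neighbours, and INS, of the other cell types, lies in the IGF2 window.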

How the data were processed

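The deposited files list, for each of 22 libraries, 1 insertion per line with its hg38 position, a read count, an orientation and a barcode. The counts are raw read counts that the authors did not normalize, and the submitters' processing notes name Trimmomatic, BWA and SAMtools without versions. Each line was taken as 1 insertion, and all lay on TTAA sites. Lines on chromosomes 1 to 22, X and Y and genes of GENCODE 44 were used. For 2 libraries the title and description name different helpers, so they entered no comparison. Density and orientation were fitted with limma 3.58.1 (trend, pseudocount 0.5) and helpers with edgeR 4.0.16 in R 4.3.3 (TMM), each over all genes, with Benjamini-Hochberg adjustment. Density needed at least 20 TTAA sites in window and surroundings and 10 insertions per library on average over window and surroundings together, and edgeR 10 insertions in 10 libraries. The scripts were tested on simulated data. Alternatives covered DESeq2 1.42.0, reads, barcodes, windows, surroundings, filters and a replicate block. Named were all members, the densest and sparsest 3 genes of each further list and its smallest helper p, per member the top site and 5 kb bin, and at most 3 promoters with a TTAA. Of these promoters, 1 was printed, since the others had no insertion. Members, lists and tests were chosen with earlier results of these data known. Intervals use t with 18 degrees of freedom.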

Additional observations from a re-analysis of the deposited data

Results flagged for a closer look

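In 3 of 34 groups of 10 libraries, 1 library stood far from the others of its group by Dixon's test, where chance gives about 1.7. The MEG3 log2 density ratio was 1.85 in hyPBase replicate 3, with the next library at 2.10. The GNAS log2 density ratio was -0.032 in hyPBase-centrip replicate 1, with the next at -0.15. The share of same-strand insertions in the MEG3 window was 38.2% in hyPBase-centrip replicate 1, with the next at 43.7%. The 2 libraries that the labels put in no group also held insertions in the member windows, 603 in the first and 474 in the second.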

How the results depend on the processing

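Under the alternatives tried for density, 103 values of the members kept their direction and side of the threshold, 7 turned direction, 4 kept it but no longer passed (PEG10 and GNAS with barcodes collapsed, PEG10 with distinct positions and KCNQ1OT1 per base pair) and 5, all of IGF2, newly passed as sparser. With distinct positions the log2 ratio was 0.0395 for IGF2 and 0.0275 for GNAS. With the gene body alone 8973 genes were called denser in place of 15987, with 26802 genes tested, and DLK1 was at -1.17, PEG10 at 0.0467 and GNAS at 0.12. GNAS was at 0.41 against 1 Mb on each side and at 0.14 per base pair. Between helpers, the 263 genes called higher and 586 lower became 121 higher with DESeq2, 157 and 340 with at least 2 reads, 6 and 34 with barcodes collapsed, 146 and 281 with the gene body alone and 430 higher with library size as a term. With at least 2 reads, KCNQ1OT1 was at -0.0574, DLK1 at 0.0048 and SNRPN at -0.0437, and with the gene body alone KCNQ1OT1 was at -0.0191 and MEST at 0.0591. For orientation, the 3139 genes called same-strand became 10295 over the whole window, 1817 without sites under a gene on the other strand, 2039 with barcodes collapsed and 6947 without a minimum. MEG3 was at -0.19 over the whole window and -0.12 with barcodes collapsed, and SNRPN at 0.15 with at least 2 reads. For the helper difference in density, 101 genes higher and 158 lower became 19 and 25 with at least 2 reads, 1 and 3 with barcodes collapsed, and 63 higher without hyPBase-centrip replicate 3. SNRPN was then at -0.0768 with at least 2 reads, KCNQ1OT1 at 0.0548, PEG3 at 0.0147 and MEST at 0.0205 with barcodes collapsed, and MEST at 0.0151 without that replicate. For the helper difference in orientation, 139 higher and 9 lower became 46 lower over the whole window, 43 and 5 with at least 2 reads and 6 and 1 with barcodes collapsed. KCNQ1OT1 was at -0.0223 over the whole window and -0.13 with at least 2 reads, and MEST at 0.10 with barcodes collapsed. The cause was not tested where none is given. Libraries of the 2 helpers with the same replicate number did not deviate together (correlations from -0.023 to 0.035), so no pairing by number was seen. These values cannot tell whether such libraries were handled together. With a replicate block, 237 genes were called higher and 522 lower between helpers, 87 and 159 in the density difference and 112 and 6 in the orientation difference, and no call of a member changed. Depth limits H19 and PEG3 most, with 3 and 62 insertions.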
